A study of Mus musculus with 10 samples.

Results

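Of 13965 peaks of N6-methyladenosine (m6A) called by MeRIP-seq, the sequencing of immunoprecipitated methylated RNA, in 3T3-L1 cells, 1351 were placed in the last exon of a transcript with more than 1 exon. These last-exon peaks were the rows that the deposited annotation lists as Exon with an exon number equal to the number of exons. There were 288 of 2824 rows in DMSO_Pre, 536 of 5128 in DMSO_MCE, 261 of 2944 in DMSO_Diff and 266 of 3069 in Rhein_MCE. 3T3-L1 is a mouse fibroblast line that turns into fat cells after a hormone cocktail. The source names in the labels count up from 3T3-L2 and never read 3T3-L1, which is the name the study uses. RNA fragments bound by an anti-m6A antibody (the IP) are set against the starting fragments (the input). Each of the 5 conditions had 1 IP and 1 input library, with no second library of either kind. DMSO_Pre came from preadipocytes given the solvent DMSO, DMSO_MCE from preadipocytes at mitotic clonal expansion given DMSO, and DMSO_Diff from cells labelled as mature adipocytes given DMSO. Rhein_MCE came from the clonal expansion stage of cells given 20 µM rhein, a plant anthraquinone, from day 0 to day 3. The same days are recorded for the DMSO treatment of DMSO_Pre, DMSO_MCE and DMSO_Diff. The treatment label reads as if rhein and DMSO were given together, so the rhein cells may carry the solvent too. The list of the fifth condition, Rhein_Diff, held 266 last-exon rows whose spans were all identical to the 266 of Rhein_MCE, and it was not counted as another sample.

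With 1 pair of libraries per condition, no difference between lists could be set against the spread between cultures. Intervals are 95% Wilson intervals for shares and 95% order-statistic intervals for medians. They cover counting of peaks only, and the reads behind each peak are unknown. The only value per peak is a score that ranks peaks within a list and behaves like an adjusted p-value turned into minus log2. A score above 33.2 stands for an adjusted p of 1e-10. None of the lists holds expression, so the stage labels could not be checked against marker levels. Of the adipocyte markers Fabp4, Adipoq, Pparg and Plin1, none held a peak in any of the 4 lists, and neither did the preadipocyte marker Dlk1. Pdgfra, a receptor of preadipocytes, held 5 peaks in DMSO_Pre, 2 in DMSO_MCE, 3 in DMSO_Diff and 1 in Rhein_MCE. A gene without a peak may lack reads as well as methylation.

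m6A is written co-transcriptionally by a methyltransferase complex that prefers adenosines in short motifs such as GGAC, and it is read by proteins that alter splicing, translation and decay. In mammalian mRNA it gathers around stop codons and in long exons. Most stop codons lie in the last exon, and no exon junction complex, the protein mark left on each splice junction, is laid down after the final junction. A last exon usually holds a short end of the coding sequence followed by a 3′ UTR. The annotation used here gives the UTR classes priority over Exon, so a peak that touches a 3′ UTR is listed there. The rows described here are therefore the coding share of last exons and the last exons of noncoding transcripts.

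The stretches below come from coding loci with a last-exon peak in each of the 4 lists, the most recurrent sites found. Each is coding sequence of GRCm38 (mm10), read 5′ to 3′ on the strand of the transcript, with the GGAC nearest the peak midpoint in capitals.
Plec, chr15:76176294-76176353, minus strand: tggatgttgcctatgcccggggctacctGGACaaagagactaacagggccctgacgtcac
Plec, chr15:76176744-76176803, minus strand: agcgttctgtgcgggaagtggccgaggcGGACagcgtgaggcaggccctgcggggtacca
Plec, chr15:76177685-76177744, minus strand: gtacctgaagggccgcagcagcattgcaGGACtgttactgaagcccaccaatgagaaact
Bhlhe40, chr6:108664742-108664801, plus strand: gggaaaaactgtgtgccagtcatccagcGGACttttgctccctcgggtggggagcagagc
Bdnf, chr2:109723851-109723910, plus strand: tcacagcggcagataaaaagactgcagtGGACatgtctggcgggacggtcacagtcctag
Kbtbd2, chr6:56779529-56779588, minus strand: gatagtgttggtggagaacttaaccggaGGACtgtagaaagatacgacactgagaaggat
Counted from the last base of the stop codon, the A of the motif lay at -271 in Bdnf, -560 in Bhlhe40, -680 in Kbtbd2 and -4153, -4603 and -5544 in the Plec stretches. The Bhlhe40 peak held 7 GGAC sites in DMSO_MCE, and the peaks of Bdnf in DMSO_MCE and Kbtbd2 in DMSO_Diff held 2 each. No GGAC stood in the recurrent peaks of Pnrc1 in DMSO_Pre, Lzts2 in Rhein_MCE, and Krcc1 and a further Plec place in DMSO_MCE. For each of these loci the spans of the other lists can differ and are not counted here.

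The next spans are shown because they hold the highest member score of DMSO_MCE, DMSO_Diff and Rhein_MCE or, for the second Otx2os1 span, a score nearly equal to it, again with GGAC in capitals. The Otx2os1 spans lie in the last exons of different transcripts of a long noncoding RNA, and the Zfp36l2 span is coding.
Otx2os1, chr14:48672336-48672410, plus strand: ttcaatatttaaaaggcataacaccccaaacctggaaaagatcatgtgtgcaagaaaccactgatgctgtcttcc
Otx2os1, chr14:48719678-48719752, plus strand: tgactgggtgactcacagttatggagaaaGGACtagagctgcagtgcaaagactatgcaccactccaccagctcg
Zfp36l2, chr17:84186231-84186280, minus strand: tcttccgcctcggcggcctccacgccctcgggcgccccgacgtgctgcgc

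The share of rows placed in last exons was 10.2% (9.14 to 11.4) in DMSO_Pre, 10.5% (9.64 to 11.3) in DMSO_MCE, 8.87% (7.89 to 9.95) in DMSO_Diff and 8.67% (7.72 to 9.72) in Rhein_MCE. The intervals of DMSO_MCE and Rhein_MCE overlapped narrowly. Past an adjusted p of 1e-10 the share was 6.25% (2.90 to 13.0) in DMSO_MCE and 4.90% (2.11 to 11.0) in DMSO_Diff, and 10.3% (5.08 to 19.8) in DMSO_Pre and 9.27% (5.60 to 15.0) in Rhein_MCE. Among the rows listed as Exon alone, last exons made up 23.3% in DMSO_MCE and 18.5% to 20.9% in the other lists. Their scores were close to those of the lists as a whole, with a median of 7.50 against 7.82 in DMSO_Pre, 7.05 against 7.18 in DMSO_MCE, 7.84 against 8.27 in DMSO_Diff and 7.54 against 7.96 in Rhein_MCE. A score past an adjusted p of 1e-10 was held by 7 of 288 members in DMSO_Pre (2.43%, beside 2.41% of all rows), 6 of 536 in DMSO_MCE (1.12%, beside 1.87%), 5 of 261 in DMSO_Diff (1.92%, beside 3.46%) and 14 of 266 in Rhein_MCE (5.26%, beside 4.92%). The larger number in Rhein_MCE thus went with a larger number in that list as a whole.

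Most members belonged to coding transcripts. The named transcript lay on the strand of the peak for 1325 of 1351 members, and it was coding for 1154. The 171 noncoding members comprised 74 on transcripts with a retained intron, 37 on processed transcripts, 36 on antisense RNAs, 23 on lincRNAs and 1 on a processed pseudogene. Retained-intron transcripts gave 25 members in DMSO_Diff, 21 in DMSO_MCE, 15 in Rhein_MCE and 13 in DMSO_Pre. Tug1, a long noncoding RNA named after its values were seen, held 3 members in DMSO_Pre and 2 in each of the other lists. The 1325 members fell in 604 genes, of which 56 held a member in every list and 374 in a single one. About 8 in 10 of these last exons carried a single member in a list, from 80.2% in DMSO_MCE to 84.2% in Rhein_MCE.

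**Figure D1:**
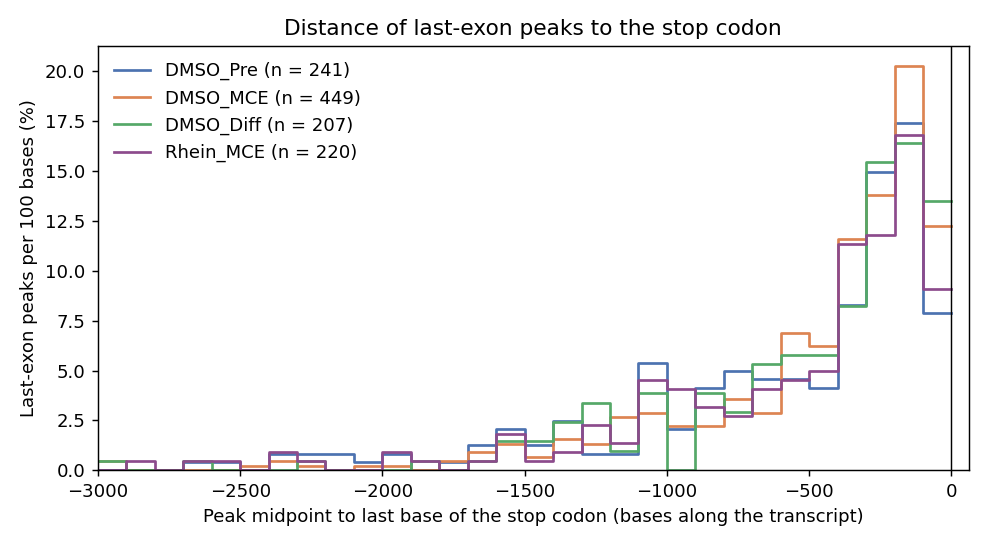
Percentage of last-exon peaks per 100 bases, by the distance from the peak midpoint to the last base of the stop codon (x axis, bases along the spliced transcript, from -3000 to 0), for 241, 449, 207 and 220 coding members of the 4 lists. Peaks farther away count in the total and are not drawn, and each list is highest in the bin from -200 to -100, with 16.4% to 20.3% of its members.

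The peaks lay upstream of the stop codon, most of them within the final 500 coding bases. Both ends lay in exons of a coding named transcript on the same strand for 1117 members. The median distance from midpoint to stop codon was -445 bases (-595 to -324.5) in DMSO_Pre, -319.5 (-356.5 to -288) in DMSO_MCE, -341 (-458 to -282) in DMSO_Diff and -411 (-561.5 to -341.5) in Rhein_MCE. Among members scoring above the median of their list, the value was farther from the stop codon in each list. It was -584 (-792.5 to -367) in DMSO_Pre, -367.5 (-500 to -307.5) in DMSO_MCE, -378 (-674 to -274) in DMSO_Diff and -650 (-975 to -499) in Rhein_MCE. Each of these intervals overlapped that of all members of the list. Ahnak and Plec, with peaks far upstream, were not left out here, so a link of score with distance beyond them was not tested. Over all members, the order DMSO_Pre, Rhein_MCE, DMSO_Diff, DMSO_MCE, from far to near, had no neighbours whose intervals were separate. Midpoints within 200 bases of the stop codon made up 25.3% (20.2 to 31.2), 32.5% (28.3 to 37.0), 30.0% (24.1 to 36.5) and 25.9% (20.6 to 32.1) of members in DMSO_Pre, DMSO_MCE, DMSO_Diff and Rhein_MCE. That no member reached past the stop codon follows from the priority given to the 3′ UTR and is not a result. The same priority thins out the final bases before the stop codon, since a peak there tends to touch the 3′ UTR. Of the 1117 members, 103 lay more than 2000 bases upstream, from 27 of 449 in DMSO_MCE to 31 of 220 in Rhein_MCE. In both of these lists most of them stood in Ahnak and Plec, and Ahnak held 20 members in Rhein_MCE against 8 in DMSO_MCE. Without these genes the median distance was -306.8 bases in DMSO_MCE and -342.5 in Rhein_MCE.

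Seen from the other end, the median midpoint lay 425 bases (381 to 498) after the junction in DMSO_Pre, 437 (390 to 483.5) in DMSO_MCE, 405.5 (353.5 to 469.5) in DMSO_Diff and 497 (422.5 to 587.5) in Rhein_MCE. Midpoints within 100 bases of the junction made up 8.79% of members in DMSO_Pre, 6.19% in DMSO_MCE, 11.7% in DMSO_Diff and 8.91% in Rhein_MCE. When the coding part of each last exon was cut into 4 equal stretches, they held 181, 305, 359 and 272 of the 1117 midpoints from 5′ to 3′. The stretch next to the junction was the emptiest in each list, with 13.1% of members in DMSO_MCE and 16.4% to 20.3% in the others. None of the 1268 measured members began before the junction, which follows from the choice of rows placed in the last exon, and the same choice thins out the bases next to the junction.

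The last exons that held these peaks were long, and long in their coding part. Their median length was 2858 bases (2558 to 3210) in DMSO_Pre, 2546 (2298 to 2682) in DMSO_MCE, 2593 (2150 to 2869) in DMSO_Diff and 2679 (2473 to 2908) in Rhein_MCE. Over all coding transcripts with a peak of any class in the list, the median last exon was 1915.5, 1816, 1891 and 1826 bases in the same order. The units differ, since these count each coding transcript once. Member medians, here and for the coding part, count an exon once per peak, and the lengths take in noncoding transcripts. With each last exon counted once, the members had medians of 2523.5, 2274, 2143 and 2336 bases. The coding part differed more. It was 1203 bases in DMSO_Pre, 948 in DMSO_MCE, 1044 in DMSO_Diff and 1225 in Rhein_MCE for the members, and 156, 159, 152 and 152 bases for the last exons of all coding transcripts with a peak. Since a member must lie in the coding part, this difference is in part fixed by the choice of members. Exons named by internal-exon rows had medians of 435, 352, 224 and 242 bases. An exon of 1000 bases or more was named by 1114 of 1324 last-exon members (84.1%) and by 1009 of 3620 internal-exon rows (27.9%).

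The exons at both extremes showed how wide the range was. Ahnak, a giant scaffold protein gene, had the longest last exon with members in several lists (17498 bases, of which 16626 were coding), followed by Zbtb1 (11725 bases), a zinc finger repressor gene, and Zfp451 (11478 bases). The Zbtb1 peak stood at chr12:76386586-76386835 in DMSO_MCE with a score of 7.84 and at chr12:76386611-76386785 in DMSO_Diff with 8.94. The Zfp451 peak scored 6.44 in DMSO_MCE and 6.07 in DMSO_Diff. The shortest was a 27-base last exon of a retained-intron transcript of Gas5, a noncoding RNA that hosts small nucleolar RNAs, with the same 100-base span (chr1:161037429-161037528) scoring 81.0 in DMSO_Pre and 40.1 in Rhein_MCE. In DMSO_Diff the overlapping row was listed in an internal exon. Cul1, a cullin of ubiquitin ligases, followed with 68 bases, and then Otx2os1 with 111.

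**Figure D2:**
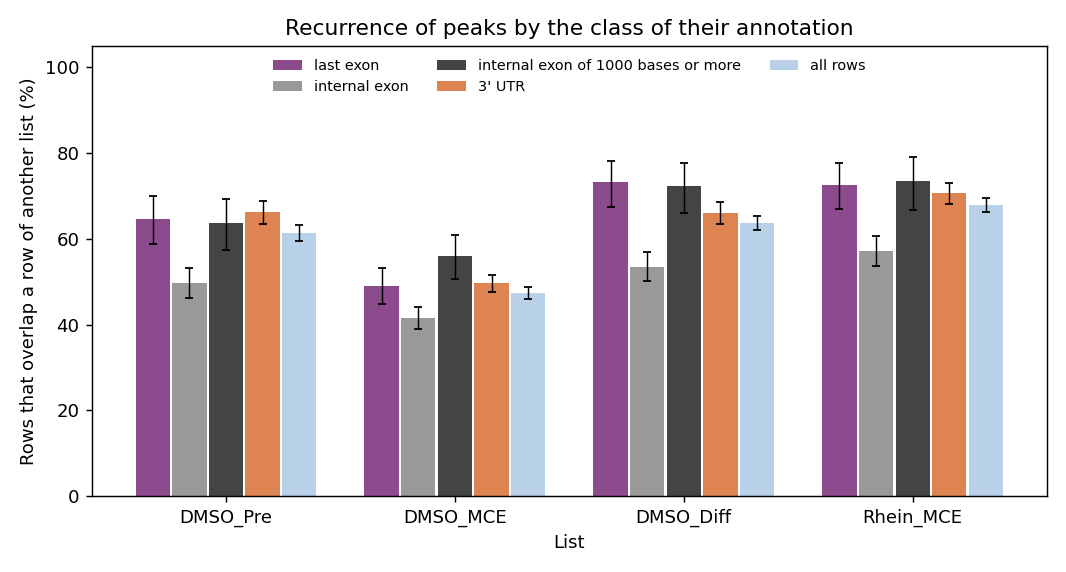
Percentage of rows that shared at least 1 base on the same strand with a row of any of the other 3 lists (y axis), by list (x axis) and class of annotation, with 95% Wilson intervals as bars. Last-exon rows (64.6%, 49.1%, 73.2% and 72.6%) stood above internal-exon rows in each list, and no such order held against internal exons of 1000 bases or more.

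Last-exon peaks recurred between lists more often than internal-exon peaks. A row of another list overlapped 186 of 288 members in DMSO_Pre (64.6%, 58.9 to 69.9), 263 of 536 in DMSO_MCE (49.1%, 44.9 to 53.3), 191 of 261 in DMSO_Diff (73.2%, 67.5 to 78.2) and 193 of 266 in Rhein_MCE (72.6%, 66.9 to 77.6). Over all rows of those lists the shares were 61.4%, 47.3%, 63.7% and 67.9%. Internal-exon rows recurred in 49.8%, 41.5%, 53.5% and 57.1%, and 3′ UTR rows in 66.2%, 49.6%, 66.0% and 70.6%. The last-exon share exceeded the internal-exon share by a mean of 14.4 percentage points ± 5.03 (SD, n = 4 lists), and it was higher in 4 of 4 lists and in 12 of 12 directions between pairs of lists. An exact two-sided sign-flip permutation test over the 4 lists gave p = 0.13, the smallest value that 4 lists can give, so no difference could pass a usual threshold. The lists are not independent, since each overlap enters from both sides.

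Exon length moved with this difference. In an alternative chosen after the data were seen, internal-exon rows in exons of 1000 bases or more recurred in 63.7%, 55.9%, 72.3% and 73.4%, and the mean difference to last exons was -1.47 percentage points ± 3.65 (SD, n = 4 lists; exact sign-flip permutation p = 0.875). Last exons were then higher in 2 of 4 lists. Against 3′ UTR rows the mean difference was 1.75 percentage points ± 3.92 (p = 0.625, exact sign-flip permutation), with 2 of 4 lists higher. The longer list found more partners. A row of DMSO_MCE overlapped 54.2% of DMSO_Pre members, 60.5% of DMSO_Diff members and 60.9% of Rhein_MCE members. Rows of those lists overlapped 28.4%, 29.5% and 31.0% of DMSO_MCE members. Over all rows of those lists, the shares that overlapped DMSO_MCE were 45.1%, 46.1% and 53.6%. Members stood above all rows in 11 of 12 directions between pairs of lists. The exception was DMSO_MCE toward Rhein_MCE, with 31.0% of members and 32.3% of all rows.

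Members that recurred in 3 other lists were wider and scored higher than members found in no other list. The median exonic width was 200 bases against 87.5 in DMSO_Pre, 225 against 97.0 in DMSO_MCE, 200 against 75.0 in DMSO_Diff and 225 against 75.0 in Rhein_MCE. The median score was 8.28 against 7.32 in DMSO_Pre, 12.1 against 6.40 in DMSO_MCE, 9.26 against 7.54 in DMSO_Diff and 9.49 against 7.40 in Rhein_MCE. A wider span meets another span more easily, and the part of width in the recurrence was not tested.

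GGAC stood under last-exon peaks somewhat more often than under all Exon rows, of which they are part. At least 1 GGAC stood on the transcribed strand in 59.4% (53.6 to 64.9) of members in DMSO_Pre, 56.2% (51.9 to 60.3) in DMSO_MCE, 51.7% (45.7 to 57.7) in DMSO_Diff and 57.5% (51.5 to 63.3) in Rhein_MCE. Among all Exon rows the shares were 50.3%, 50.4%, 42.6% and 47.3%, and among internal-exon rows 53.0%, 51.4%, 47.6% and 51.5%, and the intervals of last and internal exons overlapped in each list. In 100 bases around the midpoint the shares were 57.1%, 55.3%, 50.6% and 51.9% for members and 50.1%, 50.1%, 41.8% and 44.8% for all Exon rows. Members found in another list carried the motif more often than members found in none, with 68.8% against 42.2% in DMSO_Pre, 66.5% against 46.2% in DMSO_MCE, 60.2% against 28.6% in DMSO_Diff and 62.7% against 43.8% in Rhein_MCE. In the 100-base window the shares were 65.4% against 41.2%, 61.4% against 49.4%, 57.9% against 29.9% and 54.2% against 45.8%. In DMSO_MCE and Rhein_MCE these intervals overlapped. The window sets the bases searched, but the grouping by recurrence may still carry peak width, which was not tested. The base after the motif was A in 35.4%, C in 27.9%, T in 24.0% and G in 12.8% of 1439 sites.

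**Figure D3:**
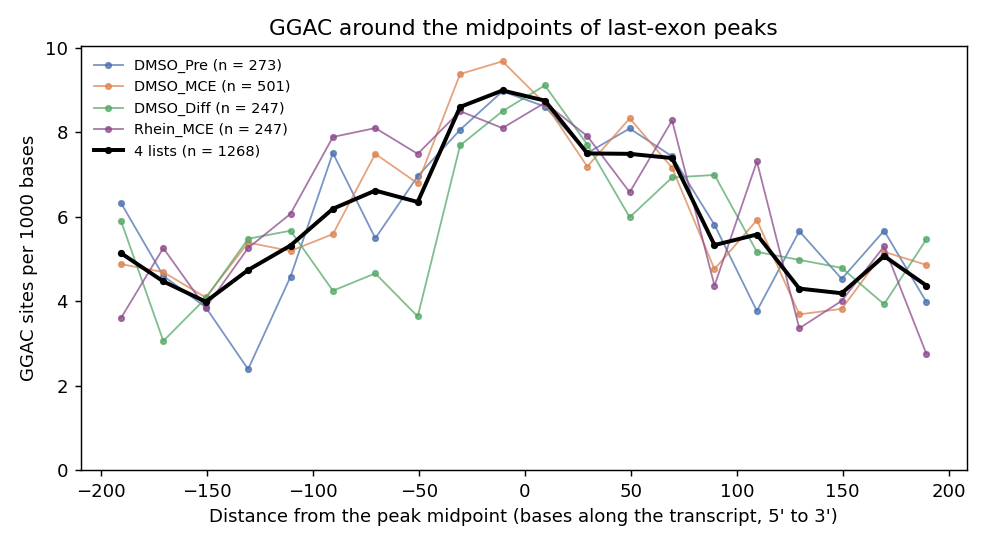
GGAC sites per 1000 bases (y axis) in bins of 20 bases by distance from the peak midpoint along the named transcript (x axis), for each list and for the 1268 members with both ends in exons of that transcript. The pooled line stood at 8.99 in the bin before the midpoint and between 3.99 and 5.58 in the bins 100 bases or more away.

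**Figure D4:**
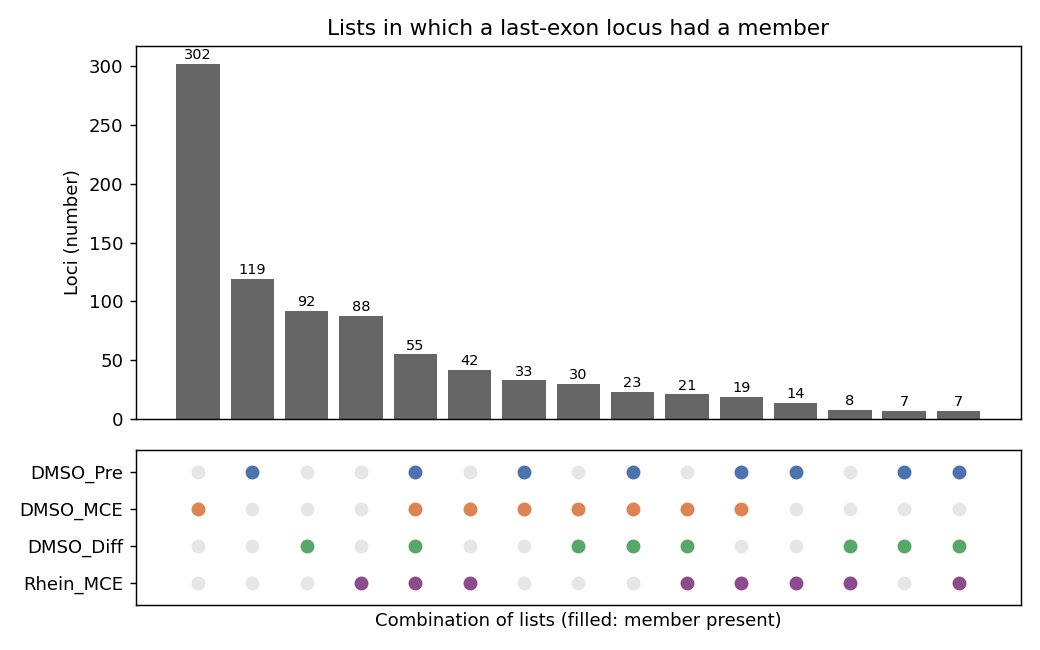
Number of last-exon loci (y axis) by the combination of lists in which the locus had a member (filled dots under each bar). The 302 loci of DMSO_MCE alone, the longest list, were the largest group, and 55 loci had a member in each of the 4 lists.

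Merged by at least 1 shared base on the same strand, the members formed 860 loci. Of these, 601 had a member in 1 list, 134 in 2, 70 in 3 and 55 in all 4. Only last-exon rows entered the loci, so a locus of 1 list may still overlap a row of another class elsewhere. Members that overlapped no row of any class in another list numbered 102 in DMSO_Pre, 273 in DMSO_MCE, 70 in DMSO_Diff and 73 in Rhein_MCE. The same count of loci over all rows was not made. DMSO_MCE, the longest list with 5128 rows, alone held 302 loci, DMSO_Pre alone 119, DMSO_Diff alone 92 and Rhein_MCE alone 88. Outside the full set, the most frequent pair was DMSO_MCE with Rhein_MCE, the same stage with and without rhein (42 loci), followed by DMSO_Pre with DMSO_MCE (33) and DMSO_MCE with DMSO_Diff (30). Loci with a member in 3 lists lacked Rhein_MCE in 23 cases, DMSO_Pre in 21, DMSO_Diff in 19 and DMSO_MCE in 7. In 43 of the 55 loci a distance to the stop codon was known in each list, and the midpoints of the best members spread over a median of 62.5 bases, with 18 loci within 50 bases and the widest at 612. Each member of such a locus overlaps at least 1 other member by construction, so near midpoints follow in part from how loci were formed. Members joined through another member need not overlap each other.

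The 55 loci in all lists lay in 46 genes. Bhlhe40, a basic helix-loop-helix repressor of the clock, scored 10.7 in DMSO_Pre, 22.1 in DMSO_MCE, 12.0 in DMSO_Diff and 22.2 in Rhein_MCE, so both clonal expansion lists were higher than the others. Pnrc1, a coactivator of nuclear receptors, scored 19.7, 14.6, 12.3 and 27.8 in the same order. Genes of the set named after their values were seen include Nfe2l2 and Bach1, which turn antioxidant genes on and off, Nfe2l1, the repressor Zeb1, Zfp445 and Zfp503, and the chromatin genes Asxl1, Chd6 and Dido1.

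Bdnf, a neurotrophin, scored 15.8 in DMSO_Pre, 13.6 in DMSO_MCE, 11.2 in DMSO_Diff and 12.0 in Rhein_MCE. Its span chr2:109723766-109723990 was identical in DMSO_Diff and Rhein_MCE. Fgf7, a fibroblast growth factor that acts on epithelia, scored 15.0, 24.1, 7.64 and 35.4 in the order given, on a processed transcript with a 660-base last exon. In DMSO_MCE and Rhein_MCE the Fgf7 span ran from chr2:126035755-126089462 across introns, and the named exon is too short to hold both ends. Kbtbd2, an adaptor of a ubiquitin ligase in insulin signalling, scored 16.4, 9.80, 18.7 and 10.3, with DMSO_Pre and DMSO_Diff above both clonal expansion lists. Krcc1 scored 13.8, 12.0, 14.8 and 8.70. Cdr2l scored 5.49, 12.1, 19.4 and 12.1. Lzts2, a regulator of beta-catenin, scored 11.5, 18.6, 9.05 and 18.7, and its rows named a processed transcript in the DMSO lists and the coding one in Rhein_MCE. Eny2, a subunit of the SAGA coactivator, scored 13.6, 15.8, 16.6 and 8.98 on a retained-intron transcript. Each of these scores ranks a peak within its own list, and differences between lists carry the unknown depth of each pair.

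**Figure D5:**
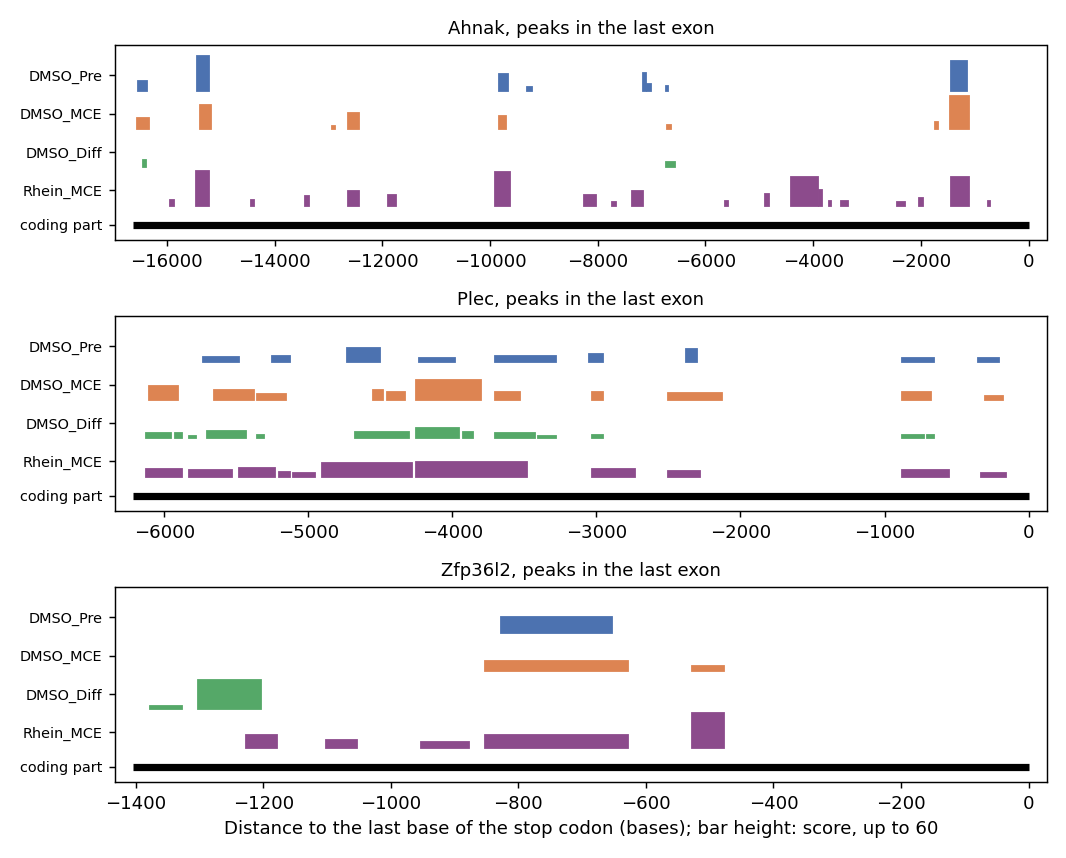
Last-exon peaks of Ahnak, Plec and Zfp36l2 by list, along the coding part of the last exon (black bar; x axis, bases before the end of the stop codon). The height of each box is proportional to its score, and scores above 60 are drawn at 60, and Rhein_MCE holds 20 boxes in Ahnak where DMSO_MCE holds 8.

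Plec and Ahnak, which encode giant linkers of the cytoskeleton and the membrane, held 82 of the 1351 members (6.07%). Plec, the plectin gene, had a last exon of 7412 bases, 6216 of them coding, with 9 members in DMSO_Pre, 11 in DMSO_MCE, 13 in DMSO_Diff and 11 in Rhein_MCE. Their midpoints ran from -6041 to -241 relative to the stop codon, over most of the coding part, as the map of the exon shows. The highest member of the leading Plec locus scored 9.04 in DMSO_Pre, 35.4 in DMSO_MCE, 17.2 in DMSO_Diff and 25.4 in Rhein_MCE. The DMSO_Pre member of 9.04 met that of Rhein_MCE but shared no base with those of DMSO_MCE and DMSO_Diff. The DMSO_Pre member that overlapped those scored 6.11. Of the 44 Plec members, 1, in Rhein_MCE, overlapped no row of another list. Among all members this share was 35.4% in DMSO_Pre, 50.9% in DMSO_MCE, 26.8% in DMSO_Diff and 27.4% in Rhein_MCE. Many peaks within 1 exon meet each other more easily, and the part of this was not tested. In Ahnak the lists differed in number, with 8 members in DMSO_Pre, 8 in DMSO_MCE, 2 in DMSO_Diff and 20 in Rhein_MCE.

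The strongest Ahnak peaks were shared. The one near the start of the exon (chr19:9002889-9003113 in DMSO_Pre) scored 59.7 in DMSO_Pre, 41.6 in DMSO_MCE and 64.2 in Rhein_MCE. The one at -1285.5 from the end of the stop codon in DMSO_Pre scored 50.7 there, 57.0 in DMSO_MCE and 49.3 in Rhein_MCE. DMSO_Diff had neither, and its 2 Ahnak members scored 12.8 and 9.43. Of the 20 members in Rhein_MCE, 16 overlapped no row of another list, led by chr19:9013914-9014413 with a score of 49.1. Ahnak thus gave 16 of the 73 Rhein_MCE members that overlapped no other list, against 3 of 102 in DMSO_Pre, 2 of 273 in DMSO_MCE and 0 of 70 in DMSO_Diff. Without Ahnak and Plec, the median distance to the stop codon in Rhein_MCE was -342.5 bases in place of -411, and 76.2% of its members recurred in place of 72.6%.

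Zfp36l2, which encodes a zinc finger protein that speeds the decay of AU-rich mRNAs, held the highest last-exon score of any list. The 50-base span printed above scored 189.7 in Rhein_MCE, the fourth highest row of that list, and the identical span scored 8.49 in DMSO_MCE, at rank 1464. The neighbouring span chr17:84186381-84186605 was identical in both lists and scored 18.1 in DMSO_MCE and 22.4 in Rhein_MCE. Zfp36l2 held 5 members in Rhein_MCE, 2 in DMSO_MCE, 2 in DMSO_Diff and 1 in DMSO_Pre. In DMSO_Diff the leading one stood elsewhere, at chr17:84186956-84187055 with a score of 50.3. The ratio of IP to input reads behind these scores is unknown, so the size of the enrichment cannot be given.

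Other members high under rhein stood in Basp1 and Erf. Basp1, a membrane-bound signalling protein gene, scored 103 in Rhein_MCE at chr15:25364377-25364801. In DMSO_MCE the overlapping row of Basp1 was listed in the 5′ UTR, and its only last-exon member scored 8.36 outside that span. The score of the overlapping row is not given here, so no DMSO_MCE score at that place is set against the 103. DMSO_Pre held 2 Basp1 members, whose scores are not given here either. In DMSO_Diff the 3 Basp1 members scored 13.3, 9.82 and 7.70. Erf, an ETS repressor gene named after its values were seen, scored 58.6 in Rhein_MCE at chr7:25244286-25244485 and 10.4 in DMSO_MCE at chr7:25244261-25244485. Across the 166 DMSO_MCE members that overlapped a Rhein_MCE row, however, the score was higher in Rhein_MCE for 68 (41.0%, 33.8 to 48.6), close to the 41.7% among all 1658 DMSO_MCE rows with such a partner. The shares with a higher score in the partner were 40.8% against DMSO_Pre and 42.4% against DMSO_Diff.

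Some high-scoring members stood in a single list. Il1r1, the receptor of interleukin 1, held a Rhein_MCE peak at chr1:40313070-40313194 with a score of 44.5. Ifit3, an interferon-induced gene, held a 50-base DMSO_Pre peak at chr19:34587212-34587261 with a score of 59.1, and Samd9l, another interferon-induced gene, one of 25.6 at chr6:3374457-3374731. Samd9l held 7 members in DMSO_Pre, 1 in DMSO_MCE and none in the other lists. Psma2, a proteasome subunit gene, held a DMSO_Diff peak of 72.4 at chr13:14625351-14625425. Others in DMSO_Diff were the antisense RNA Gm15886 (28.0) and a retained-intron transcript of Rps24 (16.1). The highest members found in DMSO_MCE alone were lower, with Rab18 at 11.8, Ahnak at 11.6 and Hnrnpab at 11.0. Adamts1, a secreted protease, scored 62.4 in DMSO_Pre and 59.7 in DMSO_MCE with the midpoint at -225.5 from the end of the stop codon in both, while the overlapping rows of DMSO_Diff and Rhein_MCE were listed in the 3′ UTR. There the gene left the last-exon class while an overlapping peak was still listed.

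Of 3582 protein-coding genes with a peak of any class in the 4 lists, 565 (15.8%) held a last-exon member. None did among the m6A machinery, where 12 of 18 genes had a peak elsewhere, or among regulators of adipogenesis and lipid metabolism, where 12 of 37 had one. The Krüppel-like factors (4 genes with a peak) and the protocadherins (9 with a peak) had none either. Genes named as zinc finger proteins held members in 25 of 75 genes with a peak (33.3%), 23 of them in DMSO_MCE, 9 in DMSO_Diff, 6 in DMSO_Pre and 5 in Rhein_MCE. That name pattern also takes in Zfp36, which belongs to another zinc finger class. Zinc finger genes often carry their fingers in 1 long last exon. Solute carriers held members in 8 of 47 genes with a peak (17.0%) and cytoplasmic ribosomal protein genes in 6 of 45 (13.3%). Among the latter, Rps3, Rps12 and Rps24 held theirs on noncoding transcripts only.

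Chromatin modifiers held members in 6 of 30 genes with a peak (20.0%). Arid1b, a subunit of the BAF remodelling complex, had members in all lists, with a best score of 8.08 in DMSO_Pre, 8.22 in DMSO_MCE, 8.69 in DMSO_Diff and 6.16 in Rhein_MCE. They stood at 2 places, and the place of the DMSO_Diff member was not that of the Rhein_MCE member. Its paralogue Arid1a scored 6.46 in DMSO_MCE and 6.96 in Rhein_MCE. The acetyltransferase gene Crebbp scored 5.92 in DMSO_Diff and 7.14 in Rhein_MCE, and its relative Ep300 4.83 in DMSO_MCE alone. Tet3, a DNA demethylase gene, scored 6.53 in DMSO_MCE and 5.94 in DMSO_Diff.

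Matrix genes held members in 6 of 27 genes with a peak (22.2%). Col6a1, a collagen VI chain, scored 12.2 in DMSO_Pre and 32.2 in DMSO_MCE, at places that did not overlap, and Col6a2 scored 9.02 in DMSO_Diff. Mmp14, a membrane-bound protease, scored 5.27 in DMSO_Pre and 9.33 in Rhein_MCE on the identical span chr14:54440361-54440435. Fbn1 scored 8.24 in Rhein_MCE, and Fbln2 11.3 and Vcan 11.9 in DMSO_Diff, the Vcan member on a noncoding transcript. Besides Plec and Ahnak, the cytoskeletal list had Ahnak2 in all 4 lists, with 12.2 in DMSO_Pre, 17.7 in DMSO_MCE, 6.79 in DMSO_Diff and 9.03 in Rhein_MCE. Vim, the vimentin gene, scored 9.01 in DMSO_Diff alone.

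Surface receptors held members in 4 of 21 genes with a peak (19.0%). The insulin receptor gene Insr scored 5.76 in DMSO_Pre and 6.05 in DMSO_MCE, Axl 8.82 and Met 4.91 in DMSO_Diff, and Smo 8.43 in DMSO_MCE. The Met member was on a noncoding transcript of the gene. Of immediate-early genes, 3 of 11 with a peak had a member (27.3%). Nr4a1, an orphan nuclear receptor, scored 5.71 in DMSO_MCE and 8.63 in Rhein_MCE, Fosl2 6.65 in DMSO_Pre and Egr1 6.48 in DMSO_MCE. Of cell cycle genes, 1 of 15 with a peak had one (6.67%). That gene was Mdm2, the ubiquitin ligase of p53, with 11.9 in DMSO_Pre and 10.9 in DMSO_Diff on neighbouring spans of a retained-intron transcript. No group share was tested against the 15.8% of all genes.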

How the data were processed

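There were 10 MeRIP-seq libraries from 3T3-L1 cells, an IP and an input for each of 5 conditions. According to the study's methods, the authors used Trim Galore for trimming, HISAT2 for alignment to mm10, Picard against duplicates, SAMtools against poorly mapped reads, exomePeak2 for peak calling and ChIPseeker for annotation. The submitters' processing notes give Trim Galore 0.6.5, HISAT2 2.1.0, Picard 2.23.5, SAMtools 1.9 and ChIPseeker 1.26. Which libraries entered each call is not given in the sources used here.

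The deposited lists hold 1 value per peak, a score whose header names a log2 fold change that its values cannot be. It was used for ranks and a threshold. The depth behind it is unknown.

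Members and gene lists were chosen with earlier results of these data known. Genes, exon lengths and stop codons came from the transcript named in each row, in GENCODE M21 of GRCm38. The named version was found for 1342 of 1351 members, the others were looked up without the version number, and 1 member whose exon count differed was not measured. The symbols in the lists, which differed from that gene in 29.9% of members on the same strand, were not used. Distances ran along the spliced transcript. Recurrence meant at least 1 shared base of the span on the same chromosome and strand. Sequence came from the RefSeq copy of GRCm38, and GGAC was searched on the strand of the peak only. The search took exonic bases of the named transcript, otherwise of the transcript that holds both peak ends, and otherwise the span, or only 25 bases at each end of a span over 1000 bases.

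Named genes were the 15 best-ranked loci with a member in each of the 4 lists, the 4 highest members of each list, up to 6 genes of each gene list, the 3 highest members of each list that overlapped no other list, and the 3 shortest and 3 longest last exons with members in 2 or more lists. Others were named after their values were seen. Python 3.11.15, NumPy 2.4.6, SciPy 1.17.1, pysam 0.24.0 and Matplotlib 3.10.9 were used, and the procedures were tested on simulated data. Alternatives covered the transcript, the overlap, the score threshold, the length of the lists and the motif window.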

Additional observations from a re-analysis of the deposited data

How the results depend on the processing

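Of 95 alternative values, 68 lay within the 95% interval of the reported value (for the mean difference in recurrence, the range over the 4 lists), 26 lay outside it and 1 changed direction. Placing peaks on the transcript that holds them raised the last-exon share to 12.2% in DMSO_MCE, 11.3% in DMSO_Diff and 10.7% in Rhein_MCE. Among rows scoring above the median of their list it fell to 9.52%, 7.74% and 7.56%, and past an adjusted p of 1e-10 to 6.25% in DMSO_MCE and 4.90% in DMSO_Diff. Recurrence with partners that are last-exon rows themselves was 58.7% in DMSO_Pre, 43.7% in DMSO_MCE and 64.8% in DMSO_Diff. With lists cut to equal length, by construction fewer partners for the others, it was 56.9% in DMSO_Pre, 66.4% in DMSO_MCE and 66.8% in Rhein_MCE, and among rows above the median score 71.7% in DMSO_MCE. The mean difference in recurrence between last and internal exons was between 9.78 and 14.9 percentage points, except against internal exons of 1000 bases or more, chosen after seeing the data, where it was -1.47. The cause was not tested. The distance to the stop codon from the nearest peak edge was -252 bases in DMSO_MCE and -254 in DMSO_Diff, and above the median score the midpoint lay at -367.5 in DMSO_MCE and -650 in Rhein_MCE. Counting each last exon once gave median lengths of 2523.5, 2274, 2143 and 2336 bases in DMSO_Pre, DMSO_MCE, DMSO_Diff and Rhein_MCE. Above the median score, GGAC stood in 65.2% in DMSO_Pre, 68.4% in DMSO_MCE and 66.4% in Rhein_MCE. Leaving out Plec and Ahnak, also chosen after seeing the data, moved none of these values beyond its interval. With 1 IP and 1 input per condition and no read numbers, neither the spread between cultures nor the depth behind any peak is known.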

Other observations

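The last-exon peaks of Otx2os1, 75 bases each and in separate exons, had nearly equal scores in every list. They were 40.2 and 40.1 in DMSO_Pre, 77.3 and 77.1 in DMSO_MCE, 72.7 and 72.4 in DMSO_Diff, and 68.6 and 68.9 in Rhein_MCE. Other rows of the region came close as well. Within 0.5 of the members lay 3 of 5 rows of the region in DMSO_Pre, 5 of 5 in DMSO_MCE, 4 of 5 in DMSO_Diff and 4 of 5 in Rhein_MCE. Over the whole list, 7, 5, 6 and 6 rows lay in that range of scores, so rows elsewhere shared it in DMSO_Pre, DMSO_Diff and Rhein_MCE, among them Psma2 at 72.4 in DMSO_Diff. The Otx2os1 sequences differ, and the source of the near-equal scores was not tested.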
